A study of Mus musculus with 2 samples.

Results

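The genes described here are 36 members of the Eph-ephrin, Slit-Robo and netrin families, out of 32285 genes in the feature lists. They were taken by gene symbol, a rule that uses no measured value, and comprise 9 EphA receptors, 5 EphB receptors, 5 ephrin-A ligands, 3 ephrin-B ligands, 3 Slit ligands, 4 Robo receptors, 2 netrins and 5 netrin receptors (4 Unc5 receptors and Dcc). They were measured by droplet-based single-cell RNA sequencing of whole mouse embryos, dissociated at embryonic day 9.5. One set of cells came from wild-type embryos (1 library) and the other (1 library) from Usb1 knockout (Usb1-null) embryos, in which a germline deletion, described by the study both as the region of exon 2 and as exons 1 and 2, removes part of Usb1, which encodes an RNA-processing nuclease acting on U6 snRNA, part of the splicing machinery. How many embryos, litters or founder lines went into a library was not stated by any source read here, and the study describes Usb1-null embryos of this stage as smaller than wild-type embryos.

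Eph receptors are receptor tyrosine kinases that bind membrane-anchored ephrins on neighbouring cells. Signals pass into both cells, and the contact usually repels, which keeps rhombomeres, somite compartments, arteries and veins apart. Slits are secreted ligands of Robo receptors and are made by the floor plate, the ventral midline of the neural tube, from which they repel axons. Netrin-1 comes from the same midline and attracts axons through Dcc, or repels them through Unc5 receptors. Robo4 and Unc5b are also known from blood vessels, and Slit2 with Robo2 from the site at which the kidney bud forms.

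With 1 library per group there was no test, and a difference compares 2 single libraries. The 95% intervals given throughout cover the counting of UMIs alone, not variation between embryos. After filtering, the wild-type library held 15161 cells with a median of 1243 unique molecular identifiers (UMIs, 1 per captured transcript), and the Usb1-null library held 13018 cells with a median of 2299.5. The libraries shared 61 cell barcodes. Usb1 itself went from 68 UMIs, or 3.13 CPM (UMIs scaled to a common library total), to 47 UMIs, or 1.41 CPM (ratio 0.450, 0.303 to 0.662). The 3′ tags do not read the deleted part itself. Xist had 53276 UMIs in the wild-type and 26 in the Usb1-null library, whereas 4 Y-linked genes had 14 and 23463, so that sex and genotype cannot be told apart; among the guidance genes this touches the X-linked Efnb1 directly. Primitive erythroid-like cells numbered 598 in the wild-type and 190 in the Usb1-null library, and their part in the results was measured by leaving them out.

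In the whole libraries the guidance genes were close to each other. UMIs summed over the 36 genes came to 8553 CPM in the wild-type and 8265 CPM in the Usb1-null library, a ratio of 0.966 (0.961 to 0.972). Of the 36 genes, all of which had at least 50 UMIs, 3 were higher by at least 1.5-fold in the Usb1-null library and 1 was lower, and 32 were neither. Among all 16752 genes with as many UMIs, 9.20% were higher and 5.90% lower by that fold, so the share of guidance genes beyond it was close to or under that of all genes. The median log2 ratio was -0.07 for the guidance genes and 0.00 for all genes, with 14 of the 36 guidance genes and 49.8% of all genes above a ratio of 1. Summed over families, the ratio was 1.01 for EphA receptors, 0.987 for EphB receptors, 0.934 for ephrin-A ligands, 0.975 for ephrin-B ligands, 0.960 for Slits, 1.11 for Robo receptors, 0.911 for netrins and 0.858 for Dcc with the Unc5 receptors.

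Epha2, an EphA receptor of epithelia and vessels (ENSMUSG00000006445, chr4:141301240-141329384, plus strand, GRCm38), had 85 UMIs (3.91 CPM, 3.12 to 4.84) in the wild-type and 357 UMIs (10.7 CPM, 9.61 to 11.9) in the Usb1-null library. The ratio was 2.73 (2.15 to 3.51), the highest of the 36. Epha10, a receptor without kinase activity, had 5.02 and 8.51 CPM (ratio 1.70, 1.36 to 2.14), beside 2.85 and 17.6 CPM in primitive erythroid-like cells, whose level is used below as a reference for free RNA. Robo3, the divergent Robo receptor of commissural axons, had only 20 and 54 UMIs (ratio 1.76, 1.04 to 3.10), and with each cell thinned to 500 UMIs its ratio was 1.33. All 3 were rare transcripts, seen in at most 2.50% of cells.

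Epha3, an EphA receptor of mesenchyme and of the tectum (ENSMUSG00000052504, chr16:63543534-63864175, minus strand), was the only guidance gene below the 1.5-fold limit. It had 1445 UMIs (66.5 CPM, 63.1 to 70.0) in the wild-type and 1172 UMIs (35.1 CPM, 33.1 to 37.2) in the Usb1-null library, a ratio of 0.528 (0.488 to 0.571). Smaller differences with intervals off 1 were seen for Efnb3 (ratio 0.751, 0.693 to 0.815), for Dcc (0.799, 0.786 to 0.813), for Robo2 (756 and 946 CPM, a ratio between 1.23 and 1.27) and for Ephb3 (1.35, 1.24 to 1.46). The gene with the most UMIs, Efna5, was at 1882 and 1761 CPM (ratio 0.936), followed by Dcc and Robo2. Robo1 was at 812 and 795 CPM (ratio 0.979) and Slit2 at 597 and 599 CPM (ratio 1.00).

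**Figure D1:**
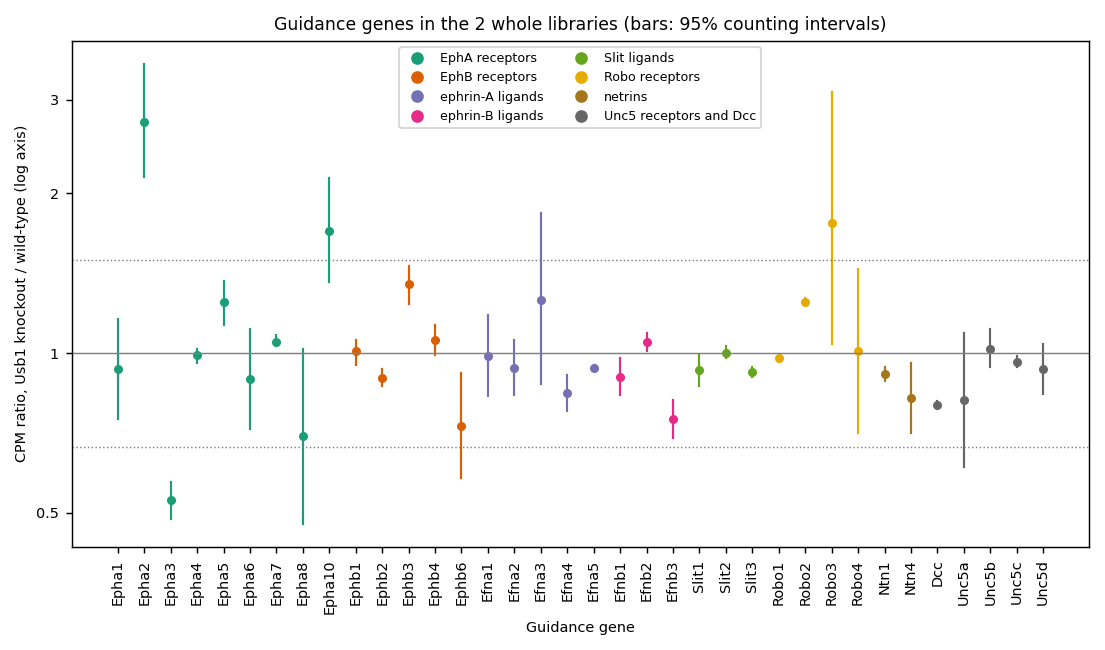
Ratio of CPM in the Usb1-null over the wild-type library on a log axis for each of the 36 guidance genes, coloured by family, with 95% counting intervals as bars and dotted lines at 1.5-fold in either direction. Epha2 (2.73), Robo3 (1.76) and Epha10 (1.70) lie above the upper line and Epha3 (0.528) below the lower one.

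Cells of both libraries were clustered together without the guidance genes, and 18 clusters, those in which both libraries had 100 cells or more, were compared. Of the 36 genes (median 2516 UMIs), 24 (66.7%) were highest in the same cluster in both libraries, against 44.3% of all 16752 genes with at least 50 UMIs (median 1094 UMIs), and the median Pearson r of log2 levels over the 18 clusters was 0.87 (0.35 to 0.99). The clusters share depth and free RNA within a library, so r is a description. The level in primitive erythroid-like cells served as a reference for free RNA. It also holds any transcripts these cells make themselves. For Epha10 in the Usb1-null library it exceeded the whole-library level (17.6 against 8.51 CPM). For rare genes it rests on few UMIs, and it was 0 CPM in both libraries for Epha6, Robo3 and Unc5a. Above this reference in both libraries, by intervals, were 12 genes in at least 10 of the other 17 clusters and 19 genes in 1 to 9. The remaining 5 genes (Epha8, Epha10, Ephb6, Efna3 and Robo3) were above it in none, and no cluster order is read for them. None of these 5 is among the 24.

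**Figure D2:**
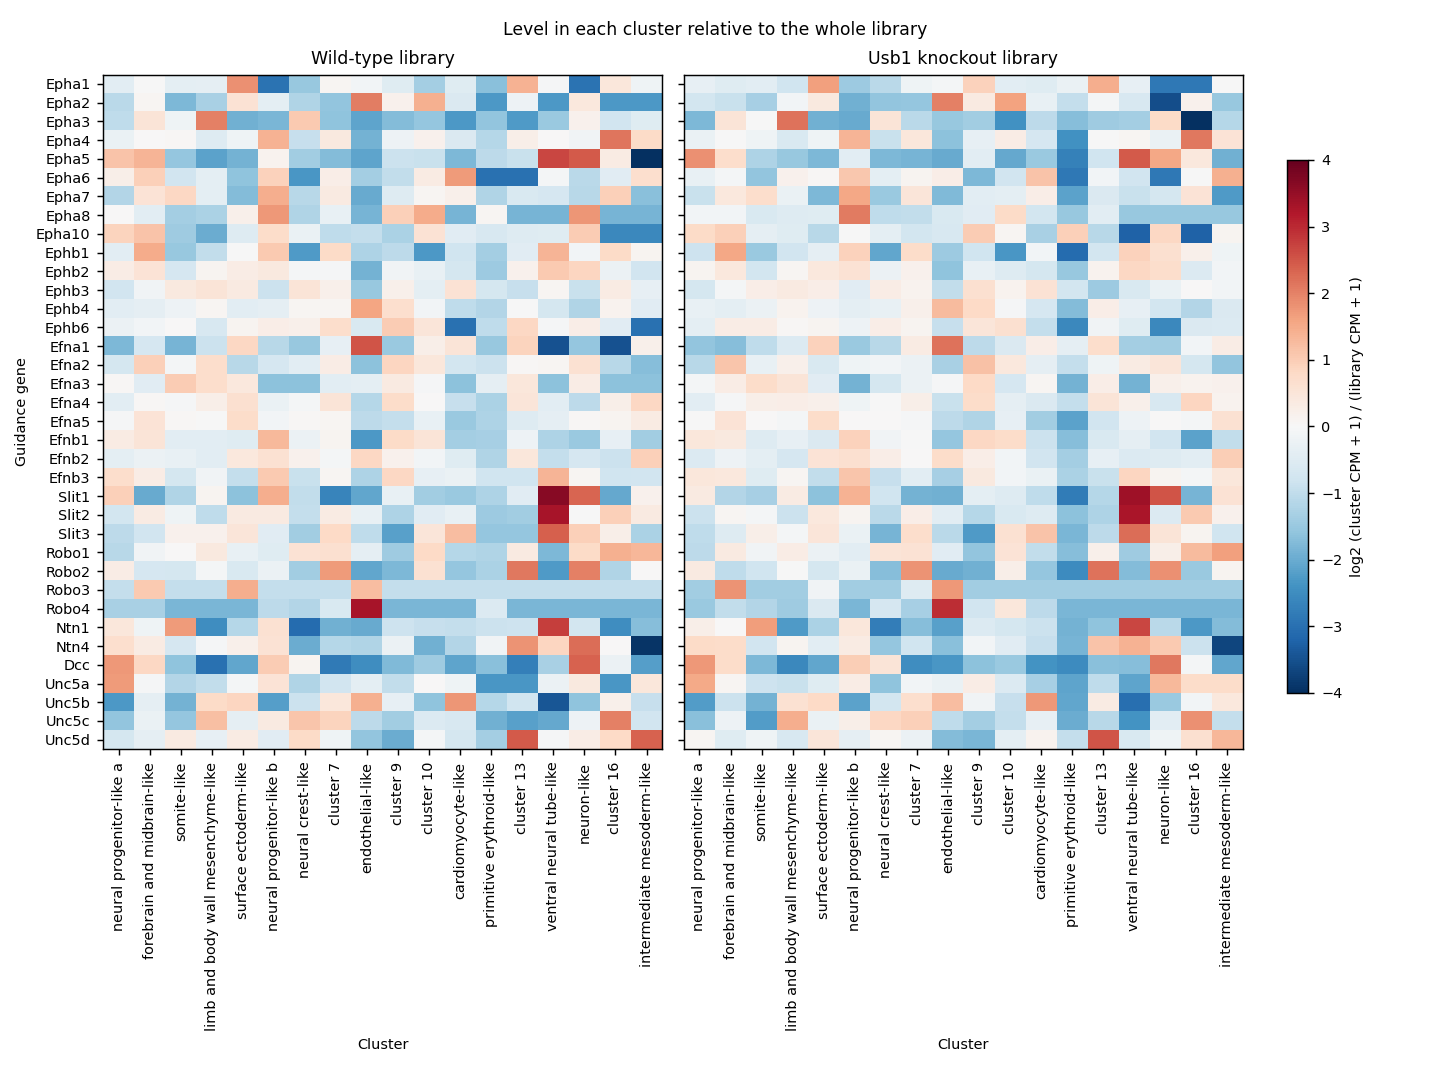
Level of each guidance gene (rows) in 18 clusters (columns) as log2 of cluster CPM over whole-library CPM, each with 1 CPM added, in the wild-type library on the left and the Usb1-null library on the right. Slit1, Slit2, Slit3 and Ntn1 have the deepest red of their rows in the ventral neural tube-like cluster, and Robo4 in the endothelial-like cluster, in both panels.

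The ligands of the ventral midline were highest together in the ventral neural tube-like cluster (212 wild-type and 229 Usb1-null cells). This cluster was named from 6 of 7 markers including Shh and Foxa2. It also had 3 raised notochord and 3 raised gut endoderm markers, from lists that share Shh and Foxa2. Whether it holds notochord cells was not tested. Slit2 reached 5879.8 CPM (5610.3 to 6159) there in the wild-type and 5813 CPM (5624 to 6007) in the Usb1-null library. Slit1 had 780.2 and 617 CPM, Slit3 had 3279 and 2688 CPM, and Ntn1 had 2249 and 1933 CPM. Slit2 was detected in 92.9% and 93.9% of these cells, against 12.2% and 16.3% of primitive erythroid-like cells; median depths were 1223 and 2389 UMIs in the ventral cluster and 838 and 1719.5 in the erythroid one. The receptors lay the other way. Robo1 had 230.5 and 294 CPM there and Robo2 had 155 and 286 CPM, each at 0.202 to 0.365 times its level in the other cells.

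Because the Slits were highest in the same cluster, the 250 bases before the RefSeq start of Slit2 and Slit3 are shown (GRCm38.p6, written 5′ to 3′ on the gene's strand). Capitals mark GC boxes, the letters GGGCGG or their reverse complement, some of which overlap. Slit2 lies at chr5:47982905-47983154 on the plus strand and Slit3 at chr11:35121206-35121455 on the plus strand:
Slit2: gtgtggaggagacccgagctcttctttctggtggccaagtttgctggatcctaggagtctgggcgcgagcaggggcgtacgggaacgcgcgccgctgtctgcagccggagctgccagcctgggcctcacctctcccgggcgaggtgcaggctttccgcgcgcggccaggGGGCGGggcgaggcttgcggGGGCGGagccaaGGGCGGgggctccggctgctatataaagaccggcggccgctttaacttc
Slit3: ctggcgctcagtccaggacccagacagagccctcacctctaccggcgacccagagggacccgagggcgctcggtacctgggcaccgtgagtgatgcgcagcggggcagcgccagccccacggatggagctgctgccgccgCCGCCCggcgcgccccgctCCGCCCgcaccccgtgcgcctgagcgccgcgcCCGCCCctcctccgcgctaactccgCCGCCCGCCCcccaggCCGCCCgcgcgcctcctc
Slit2 held 3 GC boxes and Slit3 held 6, and 32.7% of all 32851 windows of this length held at least 1. Windows were found for 31 of the 36 genes, without Efnb3, Slit1, Ntn1, Dcc and Unc5d. None of the 31 held the forkhead letters TGTTTAC (3.17% of all windows) or the Gli letters GACCACCCA (0.225%) on either strand, and the Rbpj letters GTGGGAA (5.42%) were found once, for Epha7. The Rbpj and GC box searches were added, and the windows shortened to these 250 bases from 250 before to 50 after the start, once the first 2 motifs had given no match, and a missing match says only that the letters are not in this window.

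Gates on marker genes were also applied within neural clusters, the ventral neural tube-like cluster among them. Because Shh and Foxa2 also helped to name that cluster, a gate on them is no separate check of its levels. Cells with Shh or Foxa2, the floor plate gate, numbered 158 in the wild-type and 282 in the Usb1-null library and were compared with neural cells having neither. In this gate 9 of 32 guidance genes with at least 20 UMIs in each library passed 2-fold in the same direction in both libraries, as did 4.84% of all genes with as many UMIs. Slit2 had 3941 against 728 CPM in the wild-type library (ratio 5.41, 5.05 to 5.80) and 3982 against 572 CPM in the Usb1-null library (6.96, 6.66 to 7.27). The ratios were 3.84 and 5.07 for Slit1, 4.23 and 5.03 for Slit3, and 3.53 and 3.43 for Ntn1. The netrin receptors were lower in the gate, Dcc by ratios of 0.380 and 0.318 and Unc5c by 0.372 and 0.395. Epha1, Epha8 and Epha10 also passed 2-fold in both libraries, with at most 6 UMIs in the gate and intervals that held 1. Roof plate cells, with Lmx1a or Gdf7, had more Slit2 (ratios 4.04 and 3.57) and more Unc5c (3.53 and 3.32) than other neural cells, the 2 of 32 genes that passed, against 3.92% of all genes.

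Among netrin receptors, Dcc was highest in neuron-like cells, at 5769 CPM (5523 to 6024) in the wild-type and 3835 CPM (3621 to 4059) in the Usb1-null library. It was detected in 62.5% and 64.2% of these 267 and 123 cells, against 12.5% and 17.9% of erythroid-like cells. Unc5c was highest in cluster 16, a small cluster with 4 raised otic and placode markers, at 2189.7 and 1864 CPM. Unc5b was highest in cardiomyocyte-like cells, at 155 CPM in both libraries. Unc5d was highest in cluster 13, which shared gut and yolk sac endoderm markers, at 152 and 149.7 CPM, and Unc5a in neural progenitor-like a cells, at 15.4 and 11.1 CPM. Ntn4 was at 69.9 CPM in wild-type neuron-like cells and 25.5 CPM in Usb1-null ones, on 25 and 8 UMIs.

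Robo2 was highest in cluster 13 as well, at 3291 CPM (3093 to 3499.8) and 4288 CPM (4153 to 4427), followed by neuron-like cells. Robo1 was highest in cluster 16 in the wild-type (2166 CPM) and in intermediate mesoderm-like cells in the Usb1-null library (2473 CPM), and each of these clusters was second in the other library. Robo3 had no UMI in any neuron-like cell, 0 of 267 and 0 of 123, which allows shares of cells with a Robo3 UMI of up to 1.12% and 2.44%, taking 3 cells of the total as the limit for a count of 0. At median depths of 1154 and 2354 UMIs this limits detection, not expression. Its neighbour Robo4 ends 553 bases from the end of Robo3 on the opposite strand, and both had UMIs in endothelial-like cells.

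Among Eph receptors, Epha4 was highest in cluster 16 (1413 and 1358 CPM) and Epha7 in neural progenitor-like b cells (1397 and 1577 CPM), a cluster with 3 raised hindbrain markers. Both mark rhombomeres in the hindbrain. In the 9 wild-type and 34 Usb1-null neural cells with Egr2, the transcription factor of rhombomeres 3 and 5, Epha4 was at 1647 and 1856 CPM against 414 and 395 CPM in other neural cells, ratios of 3.98 (2.59 to 5.84) and 4.70 (4.04 to 5.43). Epha7 had ratios of 4.02 (2.90 to 5.42) and 3.75 (3.32 to 4.23). Efna1, Efna2, Efnb1, Epha1, Epha10, Ephb3, Ephb4, Ntn4, Unc5a and Unc5d also passed 2-fold both times, but on 0 or 1 UMI in the wild-type gate. These 12 of 32 guidance genes stand against 22.4% of all genes that passed in this small gate. Ephb1 was highest in forebrain and midbrain-like cells (263 and 276 CPM), and Epha5 (198 and 214 CPM) and Ephb2 (438 and 339 CPM) in ventral neural tube-like cells. Epha1 was highest in surface ectoderm-like cells (26.6 and 22.0 CPM). Ephb3 and Epha6 had no cluster that was highest in both libraries.

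Neural cells with En1 and no Otx2, from the midbrain-hindbrain boundary, were compared with cells with Otx2 and no En1 (80 and 636 wild-type cells, 159 and 679 Usb1-null cells). Epha7 was at 222 against 915 CPM in the wild-type and 185 against 907 CPM in the Usb1-null library, ratios of 0.242 (0.165 to 0.344) and 0.204 (0.162 to 0.254). Epha4 had ratios of 0.476 and 0.278. Epha3 had 0 against 111 UMIs in the wild-type and 3 against 136 UMIs in the Usb1-null library. Unc5b also passed 2-fold, with 2 and 4 UMIs in the gate, which made 4 of 26 guidance genes, against 2.10% of all genes. In somite-like cells, none of the 13 guidance genes with enough UMIs passed 2-fold between the caudal (Uncx) and rostral (Tbx18) cells in both libraries, where 0.514% of all genes did. Efnb2 had ratios of 1.49 (0.873 to 2.64) and 2.39 (1.74 to 3.31) there, and Efna5 0.591 and 0.737.

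Among ephrin ligands, Efna5 was highest in surface ectoderm-like cells (3145 and 2946 CPM) and detected in 75.3% and 86.5% of all cells, against 28.1% and 32.6% of erythroid-like cells. Efnb1 was highest in neural progenitor-like b cells (119.7 and 84.4 CPM). Efnb3 was highest in ventral neural tube-like cells in the wild-type (132 CPM) and in neural progenitor-like b cells in the Usb1-null library (83.9 CPM). Efnb2 was highest in intermediate mesoderm-like cells (372 and 405 CPM) and second in endothelial-like cells (343 and 337 CPM). Efna2 and Efna4 had no cluster that was highest in both libraries.

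In endothelial-like cells (897 wild-type and 795 Usb1-null cells, all 8 markers raised), Ephb4, the venous receptor of ephrin-B2, was at 195 and 169.8 CPM, Efna1 at 61.9 and 48.5 CPM and Robo4 at 33.4 and 26.6 CPM, each its highest level of the 18 clusters. Cells with an arterial marker and no venous one (137 and 88 cells) were compared with cells of the reverse pattern (474 and 409 cells). Efnb2 was at 832 against 199 CPM in the wild-type (ratio 4.19, 3.36 to 5.23) and 699 against 223 CPM in the Usb1-null library (3.13, 2.55 to 3.83). Unc5b had ratios of 9.49 (6.18 to 14.9) and 7.60 (5.38 to 10.8), and Efna1 of 2.84 and 4.10. Ephb2 was lower in arterial cells (0.380 and 0.334). Robo4 (2.04 and 4.03) and Ntn1 (0.493 and 0.301) passed 2-fold in both, with intervals that held 1 in the wild-type. The genes that passed were 6 of 19, against 2.61% of all genes. Ephb4 did not separate the gates, at ratios of 0.865 (0.598 to 1.22) and 0.995 (0.692 to 1.40).

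UMIs of Efnb2 and Ephb4 were counted in the same endothelial-like barcodes. For reference, Efnb2 was detected in 6.69% and 11.6% and Ephb4 in 3.01% and 3.68% of erythroid-like cells, with median depths of 838 and 1719.5 UMIs against 1358 and 2519 in endothelial-like cells. Ephb4 was detected in 27.1% (22.2 to 32.4) of wild-type cells with Efnb2 and in a share of those without whose interval was 21.6% to 28.8%, and in 36.6% and 34.7% of Usb1-null cells. With called doublets removed, an alternative added after the data were seen, the shares were 26.7% and 24.9%, and 35.4% and 34.0%. With each cell thinned to 500 UMIs the shares were 9.27% against 11.8% and 4.76% against 7.32%, with overlapping intervals. Whether single cells express both genes was not tested. The windows before the starts of Efnb2 (chr8:8661243-8661492, minus strand) and Unc5b (chr10:60831582-60831831, minus strand), the 2 genes with the largest arterial ratios in the wild-type library, are shown with GC boxes in capitals:
Efnb2: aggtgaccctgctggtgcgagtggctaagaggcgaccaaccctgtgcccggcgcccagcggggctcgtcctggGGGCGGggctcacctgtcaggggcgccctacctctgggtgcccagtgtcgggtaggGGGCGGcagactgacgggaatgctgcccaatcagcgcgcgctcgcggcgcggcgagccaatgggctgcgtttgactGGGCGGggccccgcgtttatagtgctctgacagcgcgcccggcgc
Unc5b: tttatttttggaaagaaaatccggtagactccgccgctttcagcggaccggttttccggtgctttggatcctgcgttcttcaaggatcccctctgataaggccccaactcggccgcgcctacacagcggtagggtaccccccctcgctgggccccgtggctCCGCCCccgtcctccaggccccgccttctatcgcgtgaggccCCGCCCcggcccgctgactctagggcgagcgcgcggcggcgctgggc
Efnb2 held 3 GC boxes and Unc5b held 2.

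**Figure D3:**
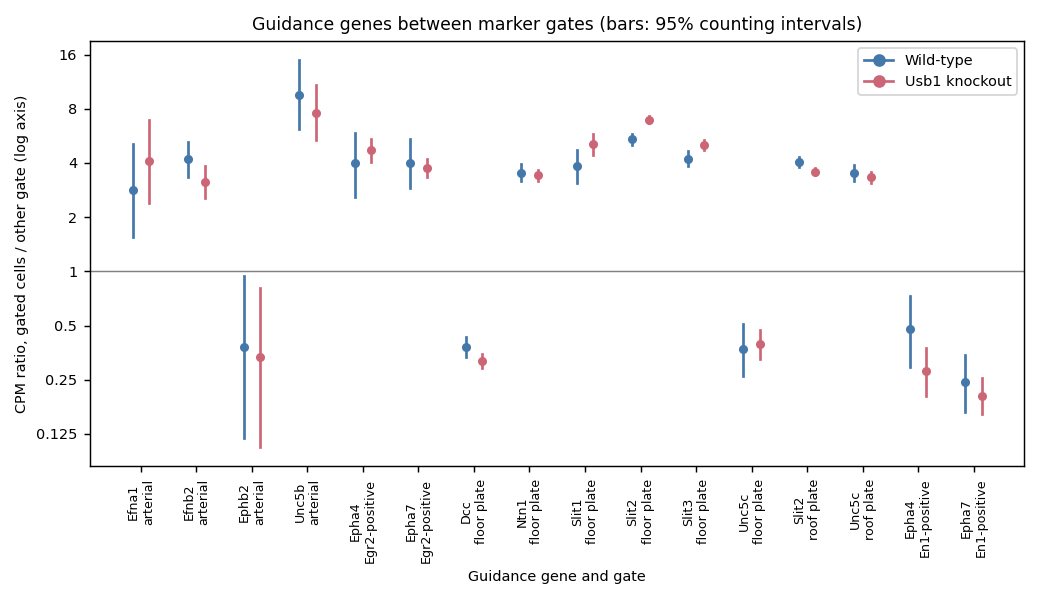
CPM ratio between marker gates on a log axis, in wild-type (blue) and Usb1-null (red) cells, for the guidance genes beyond 2-fold in both libraries whose 95% counting intervals (bars) exclude 1; Epha3 in the En1 gate, with 0 UMIs, is left out. The genes were chosen for ratios on the same side of 1 in both libraries, which run from 9.49 and 7.60 for Unc5b in arterial cells to 0.242 and 0.204 for Epha7 in cells with En1.

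Within clusters, 472 pairs of guidance gene and cluster had at least 20 UMIs. Of these, 18 (3.81%) were at least 2-fold higher and 16 (3.39%) at least 2-fold lower in the Usb1-null library, against 3.71% and 2.84% of all 187041 gene and cluster pairs. Intervals also excluded 1 for 14 of the higher (2.97% of the 472) and 12 of the lower pairs (2.54%), against 2.51% and 2.16% of all gene and cluster pairs. Each share was less than 1 percentage point above that of all genes.

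Epha2 had a ratio above 1 in 6 of 6 clusters with enough UMIs, but its level was above the free RNA reference (0 and 5.03 CPM) in both libraries only in endothelial-like cells and cluster 10. It went from 19.5 to 45.9 CPM in endothelial-like cells (ratio 2.36, 1.54 to 3.71), its highest cluster in both libraries, and from 12.1 to 34.8 CPM in cluster 10 (2.87, 1.52 to 5.89). The ratio was 2.23 in surface ectoderm-like cells, 4.51 in neural progenitor-like a cells and 9.57 (2.43 to 82.6) in limb and body wall mesenchyme-like cells, the last on 2 and 30 UMIs. These 3 clusters were not above the reference in both libraries; in neural progenitor-like a cells Epha2 was at 1.32 and 5.97 CPM. Epha3 was below 1 in 12 of 13 clusters. In limb and body wall mesenchyme-like cells, its highest cluster in both libraries, it went from 269 to 162 CPM (0.601, 0.531 to 0.681). In neural crest-like cells it went from 139.7 to 50.3 CPM (0.360, 0.287 to 0.450), a cluster that also had 5 raised craniofacial mesenchyme markers and that split, at a finer resolution, into craniofacial mesenchyme-like (760 and 582 cells) and neural crest-like cells (342 and 319). Epha3 was at 0.291 in neural progenitor-like a, 0.441 in neural progenitor-like b and 0.261 in cluster 10 cells, none of which was above its reference (21.4 and 10.1 CPM) in both libraries. In cardiomyocyte-like cells Epha3 was at 12.6 and 16.3 CPM (1.30, 0.609 to 2.95).

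Among the other receptors and ligands, Ephb3 was above 1 in 16 of 18 clusters, Robo2 in 14 of 18, Efnb3 was below 1 in 16 of 17, and Efna5 and Dcc in 14 of 18 each. Epha6 was at 0.410 in forebrain and midbrain-like cells, 4.03 in surface ectoderm-like cells and 3.70 in endothelial-like cells. None of these was above the reference in both libraries, which for Epha6 was 0 CPM in both and is limited by depth. Epha10 was at 5.23 in somite-like cells (3 and 23 UMIs), Robo3 at 2.71 in forebrain and midbrain-like cells (7 and 30 UMIs), and Unc5b at 2.27 in cluster 13. None of these 3 was above the free RNA reference in both libraries, and for Epha10 the somite-like level (1.23 and 6.45 CPM) was under the reference (2.85 and 17.6 CPM). For Robo3 the reference was 0 CPM in both libraries. Ntn4 was at 0.365 in neuron-like cells. The other 6 pairs with an interval off 1 fell outside the 10 named in each direction and were added after their values were seen. Epha5 went from 67.9 to 137 CPM in neural progenitor-like a cells (154 and 505 UMIs, ratio 2.02, 1.68 to 2.43) and Unc5d from 142 to 64.9 CPM in intermediate mesoderm-like cells (0.459, 0.243 to 0.860), both above their reference in both libraries. Not above it in both were Epha5 in limb and body wall mesenchyme-like cells (2.07), Unc5c in cluster 13 (2.04), Ephb3 in endothelial-like cells (2.02) and Epha3 in surface ectoderm-like cells (0.497). In primitive erythroid-like cells Ephb1 was at 0.283, Epha4 at 0.402, Dcc at 0.443 and Ntn1 at 0.448, where these levels serve as the reference for free RNA.

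**Figure D4:**
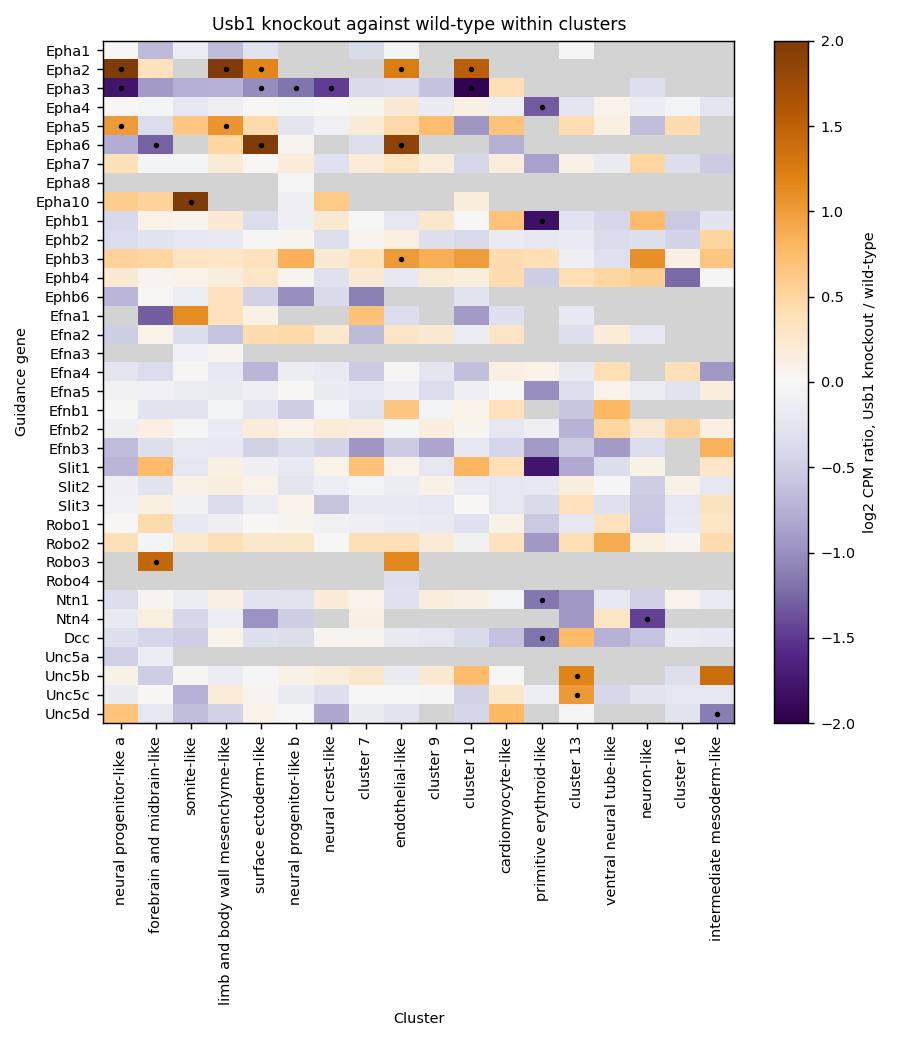
Log2 CPM ratio of Usb1-null over wild-type for each guidance gene (rows) in each of 18 clusters (columns); grey cells had under 20 UMIs and dots mark pairs beyond 2-fold whose 95% counting interval excludes 1. The Epha2 row is orange in all 6 counted clusters and the Epha3 row purple in 12 of 13.

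Other genes of these pathways, 52 in all, were taken from 3 lists. These were Eph and ephrin effectors, Slit and Robo effectors, and netrin-related receptors, ligands and effectors, so not all are downstream genes. Of the 50 with at least 50 UMIs, 1 was higher by 1.5-fold and 0 were lower, against 9.20% and 5.90% of all genes, with a median log2 ratio of -0.03; at a fold limit there is no p-value to set beside the 0. The gene was Sdcbp, the scaffold syntenin that binds ephrin-B tails, at 45.7 CPM (42.9 to 48.7) in the wild-type and 71.0 CPM (68.1 to 73.9) in the Usb1-null library (ratio 1.55, 1.44 to 1.67). It was at 75.5 and 133 CPM in primitive erythroid-like cells. Ntn5 and Trim67 had too few UMIs.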

How the data were processed

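Per the labels, mouse embryos were dissociated and barcoded with 10x Genomics 3′ v3.1 chemistry. The authors deposited raw UMI counts per gene and barcode; the matrix header names Cell Ranger 6.1.2, whereas the submitters' processing notes list 2.1.1, with build mm10. The labels call the molecule nuclear RNA. Coordinates came from GENCODE M21 (GRCm38), which held 99.8% of the gene identifiers.

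Cells with 200 to 6000 genes and under 30% mitochondrial UMIs were kept; every barcode had at least 500 UMIs. UMIs were summed by library, cluster or gate and scaled to CPM, with exact Poisson, Clopper-Pearson and conditional binomial 95% intervals, which cover counting error only. Clustering used Scanpy 1.11.5 with 2000 variable genes without the guidance genes, 30 principal components, Harmony rewritten in NumPy 2.4.6, 15 neighbours and leidenalg 0.10.2. Clusters were named "-like" from marker lists by a rule set after the clusters were seen, and names may differ from the study's. Scrublet doublets (6.15% and 4.37% of cells) were kept. All 36 genes are named. Gene and cluster pairs were named up to 10 in each direction beyond 2-fold with an interval off 1. Gate results were named when beyond 2-fold in both libraries with at least 20 UMIs in each, and other pathway genes when beyond 1.5-fold. The members and lists were chosen with earlier results of these data known. The scripts were tested on simulated counts. The En1 gate was at first computed without requiring Otx2 to be absent and was corrected to its written definition.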

Additional observations from a re-analysis of the deposited data

Results flagged for a closer look

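Epha6 differed between libraries in opposite directions in different clusters. Its ratio of Usb1-null over wild-type was 0.410 in forebrain and midbrain-like cells, 4.03 in surface ectoderm-like cells and 3.70 in endothelial-like cells. The difference between clusters was not tested, and the last 2 ratios rest on 3 wild-type UMIs each. In none of the 3 clusters was Epha6 above the free RNA reference in both libraries by intervals. That reference was 0 CPM for Epha6 in both libraries, on 701559 and 397311 UMIs, so its upper limit is set by depth alone.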

How the results depend on the processing

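With 1 library per group no replicate could be left out. No paired analysis was possible because each group has 1 library. Higher and lower guidance genes numbered 6 and 5 at a looser fold limit, between 1 and 1.5 (17.8% and 16.9% of all genes) and 1 and 0 at 2-fold (3.77% and 1.09%). The summed ratio moved beyond its counting interval to 0.934 with at least 1000 genes per cell, 0.955 with trimmed-mean (TMM) factors, 0.956 with median-of-ratios size factors, 0.959 with totals without mitochondrial, globin, Xist, Tsix and Y-linked genes, 0.947 with wild-type cluster shares and 0.956 without primitive erythroid-like cells; all stayed below 1. With at least 50 UMIs per pair, 8 of 367 pairs were higher (2.18%) and 7 lower (1.91%), against 1.65% and 1.35% of all gene and cluster pairs with as many UMIs. With 2 marker UMIs or more, 51 of 141 gate results passed (36.2%) in place of 33 of 154 (21.4%), of which 31 were shared, against 20.4% and 7.40% of all genes, on fewer cells; the cause was not tested. With the En1 gate taken whatever the Otx2 count, an alternative added after the data were seen, 33 of 154 passed, against 7.30% of all genes. Of 324 single-gene ratios under other settings, 294 stayed within their counting interval and 30 moved; 33, of 11 genes near 1, crossed a ratio of 1, among them Slit1, at 1.03 with at least 1000 genes per cell. None of the 4 genes past 1.5-fold crossed it. Epha2 ranged from 2.54 to 3.09, Epha10 from 1.63 to 1.76 and Epha3 from 0.483 to 0.593. Robo3 ranged from 1.33 to 1.96 and was under 1.5 with thinned cells. Both scaling factors were 1.01, a shift of 0.02 on the log2 scale.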
